A study of Mus musculus with 6 samples.

Results

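The Wnt ligands, receptors and antagonists are a family of secreted signals together with the proteins that receive, block and transmit them. Members were taken by name from the array: every non-control probe for a Wnt, Fzd, Sfrp, Dkk, Rspo or Lgr gene with a number, plus 19 named genes such as Wif1, Frzb, Lrp5, Axin2, Lef1 and Ctnnb1. The rule used no measured value. It found 81 probes for 63 genes, of 30325 gene names on the array, and 42 of the 63 genes could be tested. Sciatic nerve RNA was compared between 3 pools from OGT_SCKO mice and 3 pools from littermate controls (Ctrl), 1 array per pool, at an age of 1 month and on the strain labelled C56 BL6. The labels describe the OGT_SCKO animals as knockouts of Ogt, which encodes the enzyme that attaches the sugar O-GlcNAc to nuclear and cytoplasmic proteins. The pools are independent per the series text. The number of animals in a pool, the Cre line and the deleted stretch of Ogt are not given in the sources used here. All p-values therefore measure the spread between pools.

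Wnt proteins are secreted, lipid-modified ligands that bind Frizzled receptors together with the co-receptors LRP5 or LRP6. In the best known branch this stabilises beta-catenin (Ctnnb1), which enters the nucleus and acts with the DNA-binding proteins LEF1 and TCF. R-spondins bind the receptors LGR4 to LGR6 and strengthen the signal by removing ZNRF3 and RNF43, which otherwise clear Frizzled from the membrane, whereas secreted Frizzled-related proteins (SFRP), WIF1 and DKK proteins act outside the cell as antagonists or modulators. In peripheral nerve the pathway is known for roles in Schwann cell development and in the expression of myelin genes.

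The results turn mainly on 5 genes that changed by at least 2-fold and on Nkd2 and Lef1, whose pairs of probes are compared. The first 30 bases of each 60-base probe are shown, 5′ to 3′ as deposited, because these letters are what each signal below stands for. The probes lie, on build mm9, at chr10:120537079-120537138 (Wif1, plus strand), chr8:24559438-24559497 (Sfrp1, plus), chr3:83577864-83577923 (Sfrp2, plus) and chr4:124686270-124686329 (Rspo1, plus). The Lgr6 probes lie at chr1:136880538-136880597 (brighter) and chr1:136883782-136883841 (other), and the Nkd2 probes at chr13:73956776-73956835 (brighter) and chr13:73957581-73957640 (other), all on the minus strand. The brighter Lef1 probe lies at chr3:130926200-130926259 on the plus strand, and the coordinates of the other span chr3:130907851-130926012. Exons and UTRs of mm9 were not looked up.
Wif1: ggctgatatctactcttccttttaggtttt
Sfrp1: ttaaaatagtcattccggagagtcagggaa
Sfrp2: tcggcatctaagtcttcaaacatttcgttg
Lgr6 brighter probe: gtctctgttctacatatttggatctgacaa
Lgr6 other probe: tggagaagagctcctgcgactccacccaag
Rspo1: ccgtggtacacgtcacggatgacctgactt
Nkd2 brighter probe: tccaacaccctcacacagacatacatgtag
Nkd2 other probe: tgagtttatgaaagttgggcatgatgcctt
Lef1 brighter probe: actgcaagcgccgacttccaaaaagaaagc
Lef1 other probe: gtacaggtcccagaatgacagctgcctaca

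Signals are given as relative signal, which is the background-subtracted signal as a percentage of the 75th percentile of all probes on the same array, so 100% is a probe at that percentile. A gene is represented by the brightest of those probes whose spots stood well above background throughout 1 group or both, and changes were tested with limma on the log2 scale. Across the series 24268 of 39429 probes and 19046 genes passed that filter, 59.0% to 65.2% of probes per array were above background, and saturated spots were absent. Correlations between arrays, over genes, which are not independent replicates, were 0.979 to 0.995 within a group and 0.949 to 0.976 between groups. Ogt itself stood at 53.9%, 49.5% and 49.7% in the OGT_SCKO pools, against 138%, 127% and 108% in the Ctrl pools. The OGT_SCKO pools were all below the Ctrl pools (limma log2 fold change -1.28, SE 0.13, adjusted p = 0.00117). This is the brighter of 2 kept Ogt probes, and the other is not given here. A probe outside the deleted stretch would not check the deletion itself. The 3 OGT_SCKO arrays and Ctrl 2 share a slide, and Ctrl 1 and Ctrl 3 share the other, with scans divided in the same way. A fit with slide as a block therefore sets OGT_SCKO against Ctrl 2 alone.

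In OGT_SCKO nerves 7 Wnt genes rose (Wif1, Lgr6, Sfrp1, Lef1, Fzd1, Fzd3 and Wnt5a) and 8 fell (Sfrp2, Rspo1, Fzd7, Nkd1, Dkk3, Apcdd1, Fzd8 and Fzd5). The other 27 tested genes did not pass the threshold, a limma p below 0.05 after Benjamini-Hochberg adjustment over all genes. The 15 calls were 35.7% of the 42 tested, against 23.3% of all 19046 genes (11.2% called higher and 12.1% lower). At 2-fold or more 5 of the 42 were called (Wif1, Lgr6, Sfrp1, Sfrp2 and Rspo1), against 6.70% of all genes. Of the 42, 37 were above background on all 6 arrays. When only such probes were tested 13 of 37 were called, Wif1 and Sfrp2 dropping out with the filter. Over all genes that fit called 1818 higher and 2203 lower. The number of genes it tested is not given here, so 13 of 37 has no share over all genes beside it. The pools of the groups did not overlap for 25 of the 42, against 45.7% of all genes. The median log2 fold change was -0.10 over the tested Wnt genes and -0.07 over all genes, with 17 Wnt genes above and 25 below zero. Of the 5 genes past 2-fold, 3 are secreted antagonists and 2 belong to the R-spondin axis, and 3 rose while 2 fell. The exact two-sided permutation test over pools gave p = 0.1 for each of the 15 genes, the smallest that 3 against 3 pools allow.

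The 5 genes called at 2-fold or more kept their calls with slide as a block, and the 10 smaller changes lost theirs without changing sign. Of these 10, Lef1 and Nkd1 kept their calls in all 6 fits that left out 1 pool. Leaving out OGT_SCKO 3 gave 4 higher and 4 lower Wnt genes, leaving out Ctrl 2 gave the same numbers, and leaving out Ctrl 3 gave 5 higher and 3 lower. Without Ctrl 1 there were 7 higher and 5 lower.

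**Figure D1:**
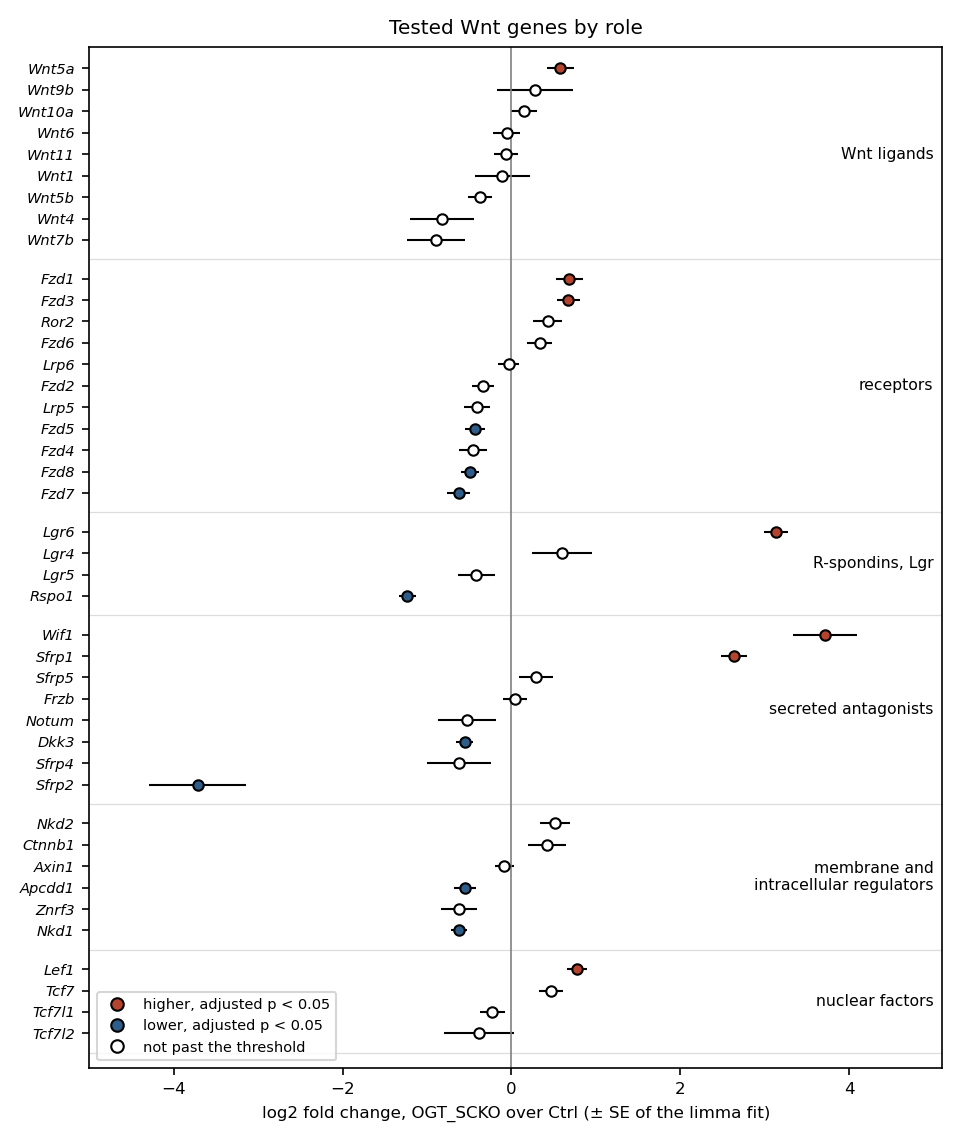
Log2 fold change of OGT_SCKO over Ctrl (x axis) for the 42 tested Wnt genes, grouped by role, with bars for the standard error of the limma fit and filled points for genes past the threshold. Among the secreted antagonists Wif1 (3.71) and Sfrp1 (2.64) lie to the right and Sfrp2 (-3.72) to the left, with Wif1 and Sfrp2 not above background on every array of their dim group, and the 9 Wnt ligands lie between -0.89 and 0.58.

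**Figure D2:**
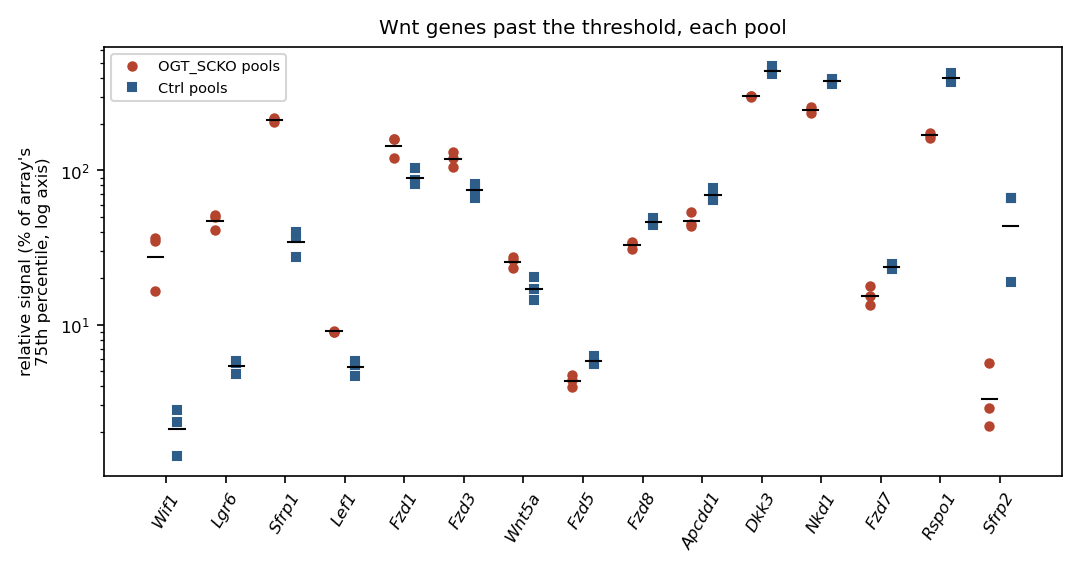
Relative signal (log axis) of the 15 called Wnt genes in each pool, OGT_SCKO pools as circles and Ctrl pools as squares, with a line at each group's mean of log values. In each of these genes the circles and squares are separate, and Sfrp2 and Wif1 show the widest spread within a group.

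Among the 19 ligands on the array 9 could be tested and 1 was called. Wnt5a, best known for signalling that does not use beta-catenin, stood at 23.2%, 26.4% and 27.4% in the OGT_SCKO pools, against 20.5%, 17.0% and 14.4% in the Ctrl pools. The OGT_SCKO pools were all higher, by 1.495-fold (limma log2 fold change 0.58, SE 0.16, adjusted p = 0.0401). The call ended with slide as a block (adjusted p = 0.19), with normexp background correction (0.0745) and without OGT_SCKO 2, OGT_SCKO 3, Ctrl 2 or Ctrl 3, where the adjusted p was 0.0695 to 0.136. Because whole nerve was measured, fewer cells of a type and less RNA per cell cannot be told apart here or in any result that follows.

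Wnt1 and Wnt6 were not called. Wnt1 varied from pool to pool, with 208%, 98.0% and 172% in OGT_SCKO, against 124%, 219.7% and 163% in Ctrl (limma log2 fold change -0.11, SE 0.33, adjusted p = 0.825). The groups overlapped, with OGT_SCKO 2 the lowest pool and Ctrl 2 the highest, and a second Wnt1 probe was not kept. Wnt6 gave 53.5%, 78.1% and 61.9% in OGT_SCKO, against 61.8%, 66.7% and 70.5% in Ctrl (adjusted p = 0.819), again with overlap. Wnt5b, a close relative of Wnt5a, stood at 36.3%, 43.1% and 32.3% in OGT_SCKO, against 46.1%, 45.8% and 52.0% in Ctrl. Its pools did not overlap, but the log2 fold change of -0.37 (SE 0.14) did not pass the test (limma adjusted p = 0.097). The other 5 tested ligands, Wnt4, Wnt7b, Wnt9b, Wnt10a and Wnt11, had log2 fold changes from -0.89 to 0.28 and adjusted p-values from 0.109 to 0.770. With slide as a block, Wnt9b turned to -0.65 and Wnt10a to -0.08, and with normexp background correction Wnt11 turned to 0.02, none of them called. Of these, Wnt4 and Wnt7b were dim, with 1.55% to 4.399% and 1.25% to 3.11% in OGT_SCKO, against 5.05% to 5.67% and 3.92% to 4.65% in Ctrl. Wnt4 was well above background on 2 of 3 OGT_SCKO arrays and Wnt7b on 1, so both were tested through the Ctrl arrays.

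The remaining 10 ligands were not tested. Wnt2, Wnt2b, Wnt3, Wnt3a, Wnt7a, Wnt8a, Wnt8b and Wnt10b were well above background on no array. Wnt9a and Wnt16 were above background on 1 OGT_SCKO and 2 Ctrl arrays each.

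Of the 14 receptors and co-receptors 11 could be tested, of which 2 Frizzled genes rose and 3 fell. Fzd1 stood at 119.6%, 159% and 159% in OGT_SCKO, against 86.6%, 81.5% and 103% in Ctrl (1.61-fold higher, limma log2 fold change 0.69, SE 0.16, adjusted p = 0.0268). Fzd3, a receptor of the planar cell polarity branch that guides axons, stood at 105%, 133% and 119.9% in OGT_SCKO, against 81.3%, 65.9% and 77.5% in Ctrl (1.59-fold higher, limma log2 fold change 0.67, SE 0.14, adjusted p = 0.0167). For both genes every OGT_SCKO pool was above every Ctrl pool.

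Fzd7, Fzd8 and Fzd5 fell. Fzd7 gave 15.4%, 17.9% and 13.3% in OGT_SCKO, against 24.8%, 22.9% and 23.9% in Ctrl (1.54-fold lower, limma log2 fold change -0.63, SE 0.13, adjusted p = 0.0199). Fzd8 gave 34.1%, 34.3% and 30.9% in OGT_SCKO, against 45.3%, 49.3% and 44.4% in Ctrl (1.40-fold lower, limma log2 fold change -0.49, SE 0.11, adjusted p = 0.0200). In all 3 genes every OGT_SCKO pool was below every Ctrl pool. Fzd5 stood at 4.401%, 3.92% and 4.71% in OGT_SCKO, against 5.55%, 6.28% and 5.68% in Ctrl (1.35-fold lower, limma log2 fold change -0.43, SE 0.12, adjusted p = 0.0422).

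None of the 5 receptor calls held with slide as a block, against Ctrl 2 alone, where adjusted p-values ran from 0.0573 for Fzd3 to 0.161 for Fzd7. The directions were the same there, with Fzd3 1.80-fold and Fzd1 1.78-fold higher and Fzd8 1.49-fold, Fzd7 1.48-fold and Fzd5 1.45-fold lower. Normexp background correction ended those of Fzd5 (adjusted p = 0.855), Fzd7 (0.128) and Fzd8 (0.064). Leaving out pools changed them as well. Fzd5 lost its call without any 1 of the 6 pools (adjusted p 0.0565 to 0.137). Fzd7 and Fzd8 lost theirs without OGT_SCKO 3 or any Ctrl pool (0.0546 to 0.0748 for Fzd7, 0.0656 to 0.0918 for Fzd8). Fzd3 lost its call without OGT_SCKO 3, Ctrl 2 or Ctrl 3 (0.0568 to 0.0703), and Fzd1 without OGT_SCKO 2, OGT_SCKO 3, Ctrl 1 or Ctrl 2 (0.0503 to 0.102).

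Fzd2 and the co-receptor gene Lrp5 were not called. Fzd2 stood at 454%, 382% and 377% in OGT_SCKO, against 514%, 557% and 462% in Ctrl (limma log2 fold change -0.34, SE 0.13, adjusted p = 0.101). Lrp5 stood at 276%, 195% and 223% in OGT_SCKO, against 286%, 301% and 327% in Ctrl (limma log2 fold change -0.41, SE 0.15, adjusted p = 0.0967). In both genes the OGT_SCKO pools lay below the Ctrl pools without passing the test. A second, dimmer Fzd2 probe had a log2 fold change of -0.09 (SE 0.16), and its pools overlapped. Lrp6, the partner co-receptor, gave 115.7%, 90.9% and 106% in OGT_SCKO, against 99.5%, 110.6% and 108% in Ctrl, with a log2 fold change of -0.03 (SE 0.13). Fzd4, Fzd6 and Ror2, the last a receptor for Wnt5a, had log2 fold changes of -0.46, 0.34 and 0.43 with adjusted p-values of 0.0873, 0.143 and 0.112. Fzd10 and Ror1 were above background on no array and Fzd9 on 1 OGT_SCKO array, so these 3 were not tested.

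In the R-spondin axis 4 of 7 genes were tested, and the ligand and one receptor changed in opposite directions. Lgr6, a receptor for R-spondins, stood at 41.1%, 51.8% and 49.9% in OGT_SCKO, against 5.82%, 5.66% and 4.78% in Ctrl. Every OGT_SCKO pool was far above the narrow Ctrl range, an 8.77-fold rise (limma log2 fold change 3.13, SE 0.14, adjusted p = 0.000146). Rspo1, a secreted R-spondin, stood at 163%, 169% and 175% in OGT_SCKO, against 428%, 375% and 391% in Ctrl. Its OGT_SCKO pools lay close together and well below the Ctrl pools, a 2.35-fold fall (limma log2 fold change -1.23, SE 0.10, adjusted p = 0.000672). In the slide-blocked fit the adjusted p was 0.00472 for Lgr6 and 0.0181 for Rspo1, and the folds were 8.37 and 2.22. On the arrays of slide 1 alone, with Ctrl 2 as the single Ctrl array, Rspo1 was again 2.22-fold lower without passing the test (0.0706).

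The size of the Lgr6 change depended on the probe. The other Lgr6 probe shown above gave 17.5%, 14.0% and 18.1% in OGT_SCKO, against 5.08%, 7.61% and 5.56% in Ctrl. It was higher in every OGT_SCKO pool too, by 2.74-fold (limma log2 fold change 1.46, SE 0.19, adjusted p over probes 0.00298). The mean of the probes gave 4.90-fold and normexp background correction of the brighter probe 5.72-fold. Both sequences therefore reported a higher Lgr6 signal, with different sizes.

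Lgr4 and Lgr5, the other receptors of the axis, overlapped between groups. Lgr4 gave 27.8%, 57.0% and 55.7% in OGT_SCKO, against 34.3%, 20.0% and 37.2% in Ctrl (limma log2 fold change 0.60, SE 0.35, adjusted p = 0.251). Lgr5 gave 17.3%, 27.0% and 26.0% in OGT_SCKO, against 26.7%, 28.5% and 37.9% in Ctrl (limma log2 fold change -0.42, SE 0.22, adjusted p = 0.206). Rspo2, Rspo3 and Rspo4 were not well above background on any array.

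**Figure D3:**
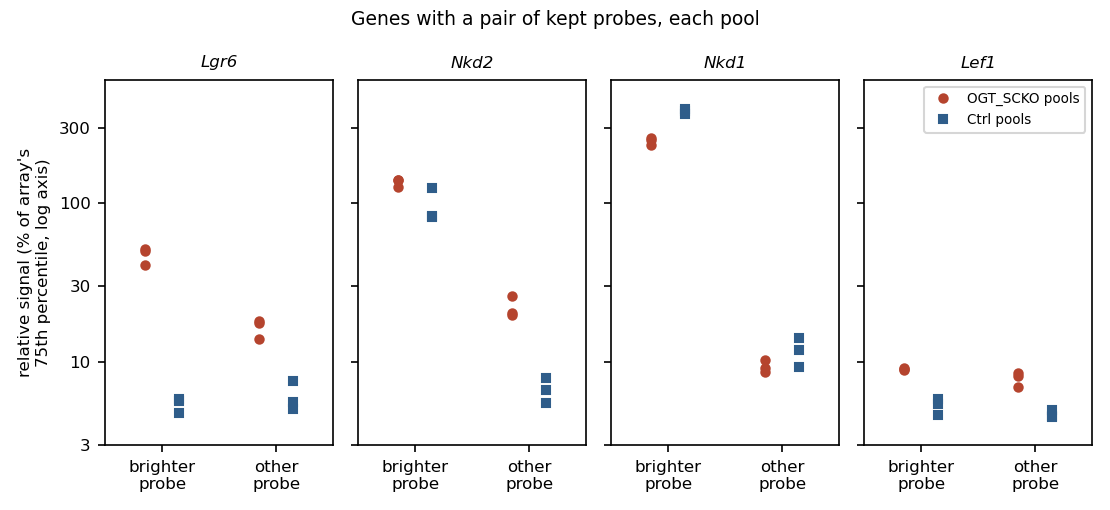
Relative signal (log axis) of each pool for the brighter and the other kept probe of Lgr6, Nkd2, Nkd1 and Lef1, OGT_SCKO pools as circles and Ctrl pools as squares. The pairs of Lgr6, Nkd2 and Lef1 lie higher in OGT_SCKO on both probes with gaps of different size for Lgr6 and Nkd2, and the dim Nkd1 probe overlaps between groups.

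Among the secreted antagonists 2 of 8 tested genes rose and 2 fell. Wif1, which binds Wnt proteins outside the cell, stood at 16.5%, 34.8% and 36.6% in OGT_SCKO, against 2.80%, 2.35% and 1.41% in Ctrl. OGT_SCKO 1 was the lowest of its group and still above every Ctrl pool. Wif1 passed the filter through the OGT_SCKO arrays, and 1 of 3 Ctrl arrays read it well above background, so its Ctrl level is poorly measured and the size of the rise depends on the background treatment. The fitted rise was 13.1-fold (limma log2 fold change 3.71, SE 0.38, adjusted p = 0.00142), and with normexp background correction it was 5.29-fold (adjusted p = 0.00274). The slide-blocked fit gave 11.7-fold (0.0263).

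Sfrp1, a secreted Frizzled-related protein, stood at 219%, 207% and 215% in OGT_SCKO, against 27.5%, 40.2% and 36.6% in Ctrl. The OGT_SCKO pools were nearly level and all far above the Ctrl pools, by 6.22-fold (limma log2 fold change 2.64, SE 0.16, adjusted p = 0.000224; 0.00539 with slide as a block). Sfrp2, its close relative, ran the other way. It stood at 5.68%, 2.88% and 2.21% in OGT_SCKO, against 18.8%, 66.5% and 66.0% in Ctrl. The groups did not overlap, and Ctrl 1 lay between the OGT_SCKO pools and the other Ctrl pools. Sfrp2 passed the filter through the Ctrl arrays, and 2 of 3 OGT_SCKO arrays read it well above background, so the size of its fall is uncertain too. The fitted fall was 13.2-fold (limma log2 fold change -3.72, SE 0.57, adjusted p = 0.00621). Without Ctrl 1 it was 20.0-fold (adjusted p = 0.0041), in the slide-blocked fit 20.1-fold (0.0365), and with normexp background correction 6.01-fold (0.0387).

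Adipocyte markers were lower in the OGT_SCKO pools, as Sfrp2 was. The summed relative signal of the 7 tested adipocyte markers was 101.6%, 41.6% and 211% in OGT_SCKO, against 283%, 1496% and 1291% in Ctrl, so that Ctrl 1 was again the lowest Ctrl pool. Within OGT_SCKO the order differed, since OGT_SCKO 3 had the highest adipocyte sum and the lowest Sfrp2 signal. Cfd, which was not called, made up most of the adipocyte sum in Ctrl 1, Ctrl 2 and Ctrl 3 (153%, 1019% and 897%). It also did so in OGT_SCKO 3 (124%), but not in OGT_SCKO 1 or OGT_SCKO 2. Of the 7 markers, 4 fell (Adipoq, Retn, Fabp4 and Cidec), 3 did not pass the test, and Lep was not tested. Adipoq and Cidec were well above background on 1 of 3 OGT_SCKO arrays each and Retn on 2. These genes passed the filter through the Ctrl arrays, so the sizes of their falls are uncertain, while Fabp4 was above background on all 6 arrays. Sfrp4, of the same family, was also low in Ctrl 1, with 79.6%, 92.1% and 84.8% in OGT_SCKO, against 68.3%, 169% and 196% in Ctrl (limma log2 fold change -0.62, SE 0.38, adjusted p = 0.266). Fibroblast markers summed to 20996% to 36870% in OGT_SCKO, against 32770% to 46622% in Ctrl, with Dpt and Mfap5 lower of 9 tested. Across the 6 arrays this sum fell as the array's 75th percentile signal rose, from Ctrl 2 (2749) to OGT_SCKO 2 (6136). The part of array brightness in it was not tested. Among single fibroblast markers Ctrl 1 was the lowest Ctrl pool for Pi16, Dpt, Mfap5, Col3a1 and Lum. It was not the lowest for Pdgfra, Col1a1, Dcn and Cd34. Skeletal muscle markers summed to 36.2% to 52.1% in OGT_SCKO, against 146% to 176% in Ctrl, with 4 of 5 tested lower (Actn3, Acta1, Myh4 and Tnnt3). The part of these tissues in the Sfrp2 result was not tested.

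**Figure D4:**
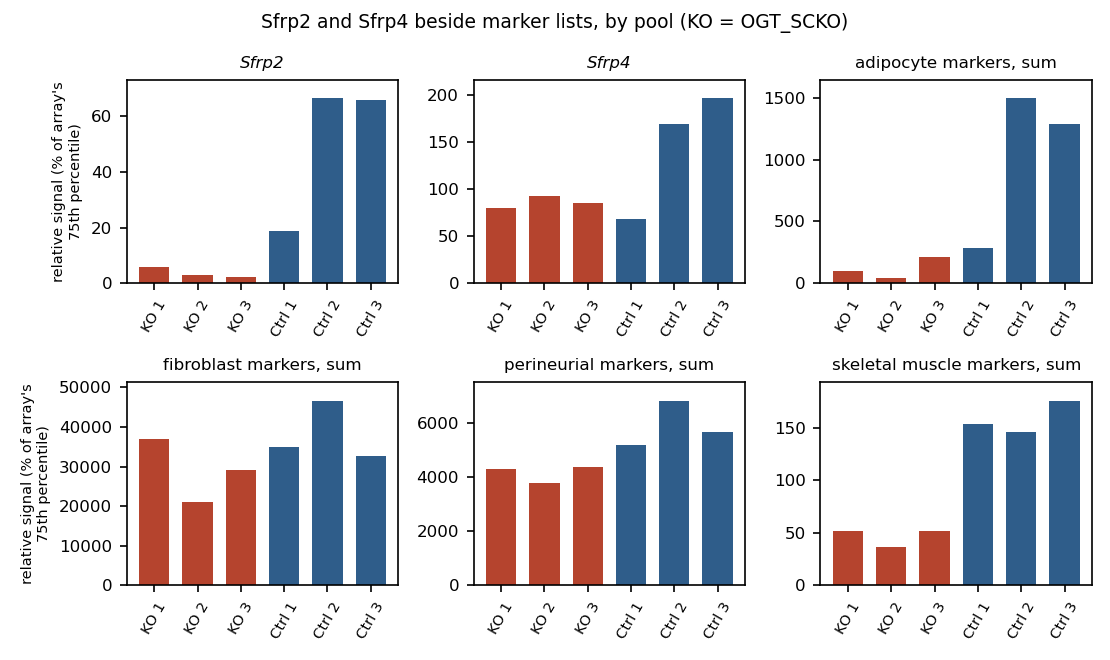
Relative signal of Sfrp2 and Sfrp4 and the summed relative signal of the adipocyte, fibroblast, perineurial and skeletal muscle marker lists, 1 bar per pool, OGT_SCKO pools (KO) left of Ctrl pools, each panel on its own axis from zero. Ctrl 1 is the lowest Ctrl bar for Sfrp2 (18.8%), Sfrp4 (68.3%), the adipocyte sum (283%) and the perineurial sum (5200%). It is not the lowest for the fibroblast and skeletal muscle sums, and single fibroblast markers differ in this.

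Dkk3, a divergent member of the Dickkopf family, stood at 304.5%, 303.5% and 299.95% in OGT_SCKO, against 439.9%, 423% and 472% in Ctrl. The OGT_SCKO pools lay almost at one level, 1.47-fold below Ctrl (limma log2 fold change -0.56, SE 0.10, adjusted p = 0.01005). The call ended in the slide-blocked fit (adjusted p = 0.123) and without OGT_SCKO 3 or Ctrl 3 (0.0542 for each). Sfrp5, another secreted Frizzled-related gene, stood at 5521%, 3523% and 5261% in OGT_SCKO, against 3343%, 4268% and 3889% in Ctrl. OGT_SCKO 2 lay within the Ctrl range and the other OGT_SCKO pools above it (limma log2 fold change 0.29, SE 0.20, adjusted p = 0.308), and Sfrp5 passed the test with quantile normalisation (log2 fold change 0.60, adjusted p = 0.0123). Notum, an enzyme that removes the lipid from Wnt proteins, gave 569.8%, 242% and 463% in OGT_SCKO, against 489.6%, 765% and 506% in Ctrl (limma adjusted p = 0.293). Frzb gave 262%, 347% and 328% in OGT_SCKO, against 297%, 287% and 321% in Ctrl (log2 fold change 0.04, SE 0.14). Both overlapped between groups. Dkk1, Dkk2 and Dkk4 were well above background on no array.

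Of the 8 membrane and intracellular regulators 6 were tested, and the 2 that passed, both known as feedback inhibitors of Wnt signalling, fell. Nkd1, which binds Dishevelled inside the cell, stood at 234%, 250.4% and 257% in OGT_SCKO, against 365%, 383% and 394% in Ctrl (1.54-fold lower, limma log2 fold change -0.62, SE 0.10, adjusted p = 0.00719). Apcdd1, a membrane protein that binds Wnt and LRP, stood at 43.7%, 44.9% and 53.6% in OGT_SCKO, against 64.4%, 66.7% and 76.6% in Ctrl (1.46-fold lower, limma log2 fold change -0.55, SE 0.13, adjusted p = 0.0273). In both genes every OGT_SCKO pool lay below every Ctrl pool. In the slide-blocked fit the adjusted p was 0.0788 for Nkd1 and 0.188 for Apcdd1, and with normexp background correction the Apcdd1 call ended (0.0675). Apcdd1 also lost its call without any 1 of the Ctrl pools (adjusted p 0.0631 to 0.104). A dimmer Nkd1 probe had a limma log2 fold change of -0.32 (SE 0.17, adjusted p over probes 0.216) with overlapping pools.

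The probes of Nkd2, the close relative of Nkd1, differed in their result. The brighter one, which represents the gene, gave 139.7%, 139.8% and 127% in OGT_SCKO, against 125%, 82.0% and 83.4% in Ctrl (limma log2 fold change 0.51, SE 0.18, adjusted p = 0.0862). The other one gave 20.3%, 26.0% and 19.9% in OGT_SCKO, against 7.92%, 6.69% and 5.52% in Ctrl, a 3.30-fold difference (limma log2 fold change 1.72, SE 0.18, adjusted p over probes 0.00128). On both sequences the OGT_SCKO pools were above the Ctrl pools, and on the brighter one Ctrl 1 came close to them. The gene is therefore not called on its brighter probe, and it was called where a gene's probes were averaged.

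Ctnnb1, the gene of beta-catenin, gave 689%, 774% and 668% in OGT_SCKO, against 675%, 375% and 587% in Ctrl. Ctrl 1 lay within the OGT_SCKO range and Ctrl 2 stood lowest (limma log2 fold change 0.42, SE 0.22, adjusted p = 0.209). With slide as a block, against Ctrl 2 alone, Ctnnb1 passed the test (limma log2 fold change 0.92, adjusted p = 0.0436). On the arrays of slide 1 alone the log2 fold change was also 0.92, and Ctnnb1 was not called. Axin1, the scaffold of the complex that degrades beta-catenin, gave 58.1%, 66.3% and 58.2% in OGT_SCKO, against 68.8%, 62.9% and 61.6% in Ctrl (log2 fold change -0.08, SE 0.11). Znrf3 was dim, at 3.73%, 2.93% and 2.35% in OGT_SCKO, against 3.93%, 5.72% and 4.16% in Ctrl (limma log2 fold change -0.62, SE 0.22, adjusted p = 0.0849), and passed the filter through the Ctrl arrays with 2 of 3 OGT_SCKO arrays above background. Axin2, a widely used target gene of beta-catenin signalling, and Rnf43 were well above background on no array, so neither could be tested.

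All 4 nuclear factors were tested and 1 rose. Lef1 stood at 8.95%, 9.03% and 9.13% in OGT_SCKO, against 4.64%, 5.82% and 5.45% in Ctrl. The OGT_SCKO pools were almost equal and all above the Ctrl pools, by 1.71-fold (limma log2 fold change 0.78, SE 0.12, adjusted p = 0.00606). The other Lef1 probe, at a separate position, gave 6.98%, 8.17% and 8.54% in OGT_SCKO, against 4.48%, 5.003% and 4.57% in Ctrl (1.68-fold, limma log2 fold change 0.75, SE 0.12, adjusted p over probes 0.00687). The call ended in the slide-blocked fit (adjusted p = 0.0858) and with normexp background correction (0.106).

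Tcf7 gave 13.5%, 10.6% and 12.3% in OGT_SCKO, against 8.29%, 10.00% and 8.11% in Ctrl. Its pools did not overlap, and the log2 fold change of 0.46 (SE 0.14) did not pass the threshold (limma adjusted p = 0.0588), passing it with quantile normalisation (0.022). Tcf7l1, which acts mainly as a repressor, gave 25.4%, 30.6% and 30.7% in OGT_SCKO, against 33.2%, 29.5% and 39.1% in Ctrl (limma adjusted p = 0.289). Tcf7l2 gave 41.1%, 12.1% and 26.1% in OGT_SCKO, against 29.1%, 36.0% and 27.7% in Ctrl (limma adjusted p = 0.522), the spread among its OGT_SCKO pools being wider than the gap between groups. Both overlapped.

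Promoter windows of RefSeq (build GRCm38.p6, 250 bases before to 50 after a start) were searched for CTTTGA, the core letters of TCF and LEF sites, and TGANTCA, those of AP-1 sites, on both strands. CTTTGA occurs in 5257 of 32851 windows (16.0%) and TGANTCA in 2565 (7.8%). Of the 15 called genes 9 have a window, 12 windows in all. CTTTGA was found in 2 of the 12, those of Fzd1 and Lef1, and TGANTCA in none. The Lef1 window with matches, chr3:131156044-131156343 on the plus strand, is 1 of 4 windows of this gene and is shown because Lef1 encodes one of the proteins that read these letters. The capitals mark the matches, which read TCAAAG on this strand and begin at -180 and -120 from the start. A match describes letters and does not show a bound site.
Lef1 promoter window: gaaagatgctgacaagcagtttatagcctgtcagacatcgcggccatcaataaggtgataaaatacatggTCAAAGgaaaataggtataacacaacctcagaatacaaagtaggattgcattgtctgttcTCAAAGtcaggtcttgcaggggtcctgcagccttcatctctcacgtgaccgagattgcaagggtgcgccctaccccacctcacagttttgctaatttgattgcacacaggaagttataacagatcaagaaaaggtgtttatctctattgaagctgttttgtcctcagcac

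Other genes of the pathway, 66 in all, were read from a separate list. Of the 56 tested 7 rose and 6 fell (23.2%, against 23.3% of all genes), with a median log2 fold change of 0.01. Ccnd1, the gene of cyclin D1 and a known target of beta-catenin as well as of other pathways, stood at 1860%, 2084% and 1808% in OGT_SCKO, against 678%, 623% and 774% in Ctrl. It was higher in every OGT_SCKO pool, by 2.78-fold (limma log2 fold change 1.47, SE 0.13, adjusted p = 0.000694; 0.00945 with slide as a block). Cthrc1, a secreted protein that binds Wnt and Frizzled, gave 56.0%, 96.0% and 71.5% in OGT_SCKO, against 33.6%, 31.9% and 32.1% in Ctrl (limma log2 fold change 1.16, SE 0.20, adjusted p = 0.00885). Tpbg (log2 fold change 0.87), Tmem132a (0.67), Cd44 (0.65) and Kremen1 (0.57), a DKK receptor, rose less. Those that fell were Ctnnbip1 (-0.69), an inhibitor of the contact between beta-catenin and TCF, Prickle1 (-0.69), Invs (-0.59), Apc2 (-0.58), Tnfrsf19 (-0.42) and Ctnnd1 (-0.34).

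With slide as a block Ccnd1 alone of these 13 calls remained. Myc, another known target of beta-catenin, was tested and not called, and Sp5 was not tested. Leaving out OGT_SCKO 3 or any 1 of the Ctrl pools left 1 gene of the list lower.

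Markers of the cell types in the nerve were read beside these results. The 8 Schwann cell markers were all tested, 1 of them was lower (S100b), and their summed relative signal was 20946% to 32700% in OGT_SCKO, against 31488% to 39217% in Ctrl. Perineurial markers summed to 3795% to 4396% in OGT_SCKO, against 5200% to 6841% in Ctrl, with 3 of 7 lower (Lypd2, Msln and Krt19), and endothelial markers to 1443% to 1821% in OGT_SCKO, against 2282% to 2603% in Ctrl, with Vwf lower of 7. Macrophage markers overlapped, at 3718% to 4578% in OGT_SCKO and 3847% to 4450% in Ctrl, with none of 7 called. Mural cell markers summed to 3051% to 5210.5% in OGT_SCKO, against 4925% to 6505% in Ctrl, while Pdgfrb and Cnn1 were higher of 7. Tagln made up most of that sum. The mean log2 signal of the mural list was -0.05 in OGT_SCKO, against -0.39 in Ctrl. Cnn1 had a log2 fold change of 3.63, and 5 of the 7 were below zero. Cnn1 passed the filter through the OGT_SCKO arrays and was well above background on 1 of 3 Ctrl arrays. The size of its rise, and the list mean that includes it, are therefore uncertain. Each list's sum was highest on Ctrl 2 and lowest on OGT_SCKO 2, except for the macrophage and skeletal muscle lists. Those arrays had the lowest and highest 75th percentile signal. Of the lists that moved, the perineurial, endothelial, adipocyte and skeletal muscle sums were separate between groups, all lower in OGT_SCKO, the direction of Rspo1, Sfrp2 and Dkk3 and opposite to Wif1, Sfrp1 and Lgr6. In these lists Tjp1 (log2 fold change 0.46), Tie1 (0.17) and Mylpf (0.56) were above zero without being called. The other tested members were below zero. The part of these lists in the Wnt results was not tested.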

How the data were processed

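Total RNA of 6 pools was labelled chemically with Cy5 and read on 1-colour arrays, per the labels' protocols. The deposited intensity values are background-subtracted processed signals from Agilent Feature Extraction 11.5.1.1, per the file headers and the submitters' processing notes, not scaled between arrays. A table of log2 values deposited by the authors, with equal distributions across its columns, served as an alternative, and its other steps are not given in the sources used here.

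Log2 processed signal minus each array's 75th percentile was analysed, without control and outlier spots (40 probes lost at least 1 array). Spots of a probe were averaged. A probe was kept where every array of 1 group or of both read it well above background, and the brightest represented its gene. Accessions of 27655 probes matched a RefSeq gene table (GRCm38.p6), 1711 symbols were updated and 11774 probes kept their file name, no member symbol being altered. The comparison used limma 3.58.1 (lmFit, eBayes) under R 4.3.3 over all 19046 genes, with no covariate and Benjamini-Hochberg adjustment. Errors are standard errors of that fit. For second probes the fit ran over all kept probes. Precision is limited by the number of arrays. The test was checked on data with known answers.

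The members and lists were chosen with earlier results of these data known. Named with a value in every pool were each Wnt gene past the threshold and the brightest pair of tested genes per role. Of the other pathway genes, up to 6 risers and 6 fallers by smallest p were named. Pool values are given for Ccnd1 and Cthrc1 and the log2 fold change alone for the rest. Daam2 was the remaining riser. Wnt5b, Lrp6, Lgr5, Nkd2, Sfrp4, Frzb, Axin1, Znrf3, Tcf7 and the ranges of dim ligands are given in addition, chosen after their values were seen. Alternatives changed the scaling, the background correction, the filter, the choice of probe, the floor, the variance model, the threshold, the slide or replicate block and the pools included. Deviations of same-numbered pools correlated, over genes, at -0.27, -0.53 and 0.06, which does not show a pairing. Differences in brightness between arrays could hide one, so these values cannot settle it.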

Additional observations from a re-analysis of the deposited data

How the results depend on the processing

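All genes called, 4440 in the analysis above, numbered 2722 with normexp background correction, 2632 without the filter on dim probes, 1226 with slide as a fixed block, 407 on slide 1 alone, 1739 at an adjusted p under 0.01 and 1976 to 5632 with 1 pool left out. Wnt genes called higher, 7 above, numbered 4 without the filter, 4 with the slide block, 3 on slide 1, 4 at 0.01 and 4 to 7 with 1 pool left out. Those lower, 8 above, numbered 4 with normexp, 4 without the filter, 2 with the slide block, 1 on slide 1, 3 at 0.01 and 3 to 10 with 1 pool left out. Other pathway genes called higher, 7 above, numbered 1 with the slide block, 1 on slide 1 and 5 to 7 with 1 pool left out. Those lower, 6 above, numbered 3 with normexp, 1 without the filter, 0 with the slide block or on slide 1 (limma), 1 at 0.01 and 1 to 7 with 1 pool left out. The Wnt median log2 fold change, -0.10 above, was -0.33 without the filter, -0.23 with the slide block or on slide 1, and -0.17 to -0.08 with 1 pool left out. With 1 pool left out, Tcf7l2 ranged from -0.7854 to 0.09408 (positive without OGT_SCKO 2), Wnt1 from -0.3378 to 0.2057 (positive without OGT_SCKO 2 and, at 0.09817, without Ctrl 2) and Wnt6 from -0.2029 to 0.06948 (positive without OGT_SCKO 1), none of them called in the analysis above. The cause was not tested. Of the 42 tested Wnt genes 8 changed sign under some alternative, none of them called there or above: these 3, Wnt9b (-0.65) and Wnt10a (-0.08) with the slide block or on slide 1, Wnt11 with normexp (0.021) and without OGT_SCKO 2 (0.064), Lrp6 with median scaling (0.0061) and without OGT_SCKO 2 (0.063), and Frzb without OGT_SCKO 2 (-0.039). Quantile or median scaling moved the median of all genes by at most 0.06. That median does not show shifts of single genes, and Sfrp5 and Tcf7 gained calls with quantile normalisation.

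A replicate block gave 1480 genes called, with 4 Wnt genes higher and 2 lower and 3 other pathway genes higher and 1 lower, and 6 of the 15 Wnt calls were kept. Same-numbered pools share a number and nothing shown to pair them.

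Each group has 3 pools, and 3 against 3 cannot reach a permutation p below 0.1. Genes near background, such as Wif1 in Ctrl and Sfrp2 in OGT_SCKO, have fold changes that depend on the background correction, and slide and group are confounded except for Ctrl 2.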
